A study of Mus musculus with 4 samples.

Results

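The genes examined were 50 genes of DNA replication licensing and the replication fork, chosen by symbol from a fixed list and found in the count table as 50 of its 47937 genes. All 50 passed the filter on low counts. They fell into 8 roles, which were origin licensing (7 genes), the replicative helicase (12), the DNA polymerases (8), the sliding clamp and its loader (6), strand binding and Okazaki fragment processing (5), nucleotide supply (6), histone supply and chromatin assembly (3) and fork protection (3). Total RNA was sequenced from mouse embryonic fibroblasts (MEF cells), a cultured connective tissue cell of the mouse embryo. Untreated cells gave 2 libraries, and cells exposed for 24 h to 50 µM genistein, an isoflavone of soy and other plants, gave the other 2. All 4 libraries carry the same cell line label and growth medium. The untreated libraries are labelled wild-type, while the genotype label of the exposed libraries repeats the treatment. The labels do not say whether the 2 libraries of a group came from separate cultures, so the p-values measure the spread between these libraries, which may be technical. Whether the untreated cells received solvent is not stated in the labels.

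DNA replication starts when the origin recognition complex, Cdc6 and Cdt1 load the MCM helicase onto DNA before S phase. The helicase is then activated by Cdc45 and the GINS complex, and polymerases, a sliding clamp, a ligase and a supply of nucleotides and histones follow the fork. Many of these genes are transcribed around the entry into S phase under E2F factors, and their transcripts are abundant in proliferating fibroblasts.

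The libraries held 28591958 to 31464284 counts over genes and repeats, and no library stood apart from its group, with a correlation of log2 CPM (counts scaled to library size) of 0.9955 and 0.9954 within groups and of 0.960 to 0.964 between them. The share of repeats was 12.0% and 12.5% without and 14.6% and 13.6% with genistein. Of 8 fibroblast markers 7 were expressed, with a summed normalised count of 421749 and 433924 in the untreated and of 404284 and 394463 in the genistein libraries, and Thy1 was at 0 in all 4. Of these 7 markers 6 were called lower, with a median log2 fold change of -0.31 over the 7, and 1 (Fn1) was called higher. Defining markers of other cell types were at or near 0 (Epcam and Myod1 at 0, Ptprc at 0 to 1 and Cdh5 at 0 to 1 raw counts). Of the marker lists of other cells, 2 of 5 epithelial, 1 of 4 endothelial, 1 of 4 immune and 1 of 4 skeletal muscle markers passed the filter on low counts, and these moved. The summed epithelial markers went from 445 and 457 to 133 and 122 normalised counts, Kdr from 16.0 and 20.1 to 68.5 and 74.9, Cd68 from 83.9 and 65.6 to 211 and 213, and Des from 37.0 and 29.6 to 283 and 264. Their part in the results below was not tested.

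Promoter sequences are shown for the members at both ends of the response, to let the upstream letters of the strongest and the weakest responders be set side by side. They are RefSeq windows on GRCm38.p6, read 5′ to 3′ on the strand of the gene, and end before the first annotated transcribed base. Capitals mark E2F-type letters and the CCAAT box on either strand. The first 3 belong to the genes with the lowest log2 fold change and the last 3 to those with the highest, among the 41 members with a window.
Ung, chr5:114130185-114130385, plus strand: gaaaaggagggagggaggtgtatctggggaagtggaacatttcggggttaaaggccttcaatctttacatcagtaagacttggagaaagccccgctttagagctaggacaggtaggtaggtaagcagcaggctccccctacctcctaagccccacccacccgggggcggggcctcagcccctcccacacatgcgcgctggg
Pold2, chr11:5878293-5878506, minus strand: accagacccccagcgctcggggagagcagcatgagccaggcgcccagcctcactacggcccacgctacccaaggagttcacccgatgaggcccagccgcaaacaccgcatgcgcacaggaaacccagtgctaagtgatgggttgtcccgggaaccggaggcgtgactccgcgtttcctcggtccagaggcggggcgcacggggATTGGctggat
Orc2, chr1:58505110-58505359, minus strand: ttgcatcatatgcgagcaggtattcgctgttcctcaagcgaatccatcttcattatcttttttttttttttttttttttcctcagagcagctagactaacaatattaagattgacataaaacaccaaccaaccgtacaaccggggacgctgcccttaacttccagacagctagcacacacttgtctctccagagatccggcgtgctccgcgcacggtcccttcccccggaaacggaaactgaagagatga
Rrm1, chr7:102441445-102441694, plus strand: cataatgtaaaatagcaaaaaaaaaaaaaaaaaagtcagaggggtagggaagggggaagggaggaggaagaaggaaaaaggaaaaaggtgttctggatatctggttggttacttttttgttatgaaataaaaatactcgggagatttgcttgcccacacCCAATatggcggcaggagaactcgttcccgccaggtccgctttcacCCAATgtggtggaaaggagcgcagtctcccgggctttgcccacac
Orc1, chr4:108579204-108579422, plus strand: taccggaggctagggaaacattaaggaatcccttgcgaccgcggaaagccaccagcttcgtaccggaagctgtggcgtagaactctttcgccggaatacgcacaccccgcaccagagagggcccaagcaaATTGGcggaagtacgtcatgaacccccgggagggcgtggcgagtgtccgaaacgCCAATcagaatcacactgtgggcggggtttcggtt
Dtl, chr1:191575545-191575794, minus strand: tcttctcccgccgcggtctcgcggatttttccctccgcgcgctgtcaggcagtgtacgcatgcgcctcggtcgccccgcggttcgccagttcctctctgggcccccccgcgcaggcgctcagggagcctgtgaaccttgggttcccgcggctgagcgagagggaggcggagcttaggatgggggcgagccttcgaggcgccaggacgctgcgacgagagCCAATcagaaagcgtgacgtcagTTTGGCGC
The Ung and Orc2 stretches held no capital, and Pold2 carried 1 CCAAT box. Dtl carried a CCAAT box and, in the last 8 bases before its start site, the E2F-type letters TTTGGCGC, while Rrm1 and Orc1 each carried a pair of CCAAT boxes. The CCAAT box of this Orc2 window (20 to 24 bases after the start site), the other 2 of Pold2 and the E2F-type letters of Orc1 (GCGCGAAA) lay in the part of the window that is not printed. Another Orc2 window, which is not shown, held a CCAAT box 45 to 41 bases before its own start site.

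The comparison of genistein-exposed with untreated cells asked how the transcripts of the replication machinery stood after 24 h of genistein. Of the 50 genes 48 fell, 0 rose and 2 (Orc1 and Dtl) did not pass an adjusted p of 0.05 in edgeR (quasi-likelihood test, Benjamini-Hochberg adjustment across the 17358 genes and repeats tested). Over all tested entries 36% were called lower and 36.2% higher. Among the 8502 entries with a mean normalised count between the lowest and highest of the 50 genes, 50.7% were called lower. Both genistein libraries lay below both untreated libraries for 49 of the 50 genes, against 42% of all tested entries, and Dtl lay above without overlap.

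The falls were mostly moderate. The median log2 fold change (genistein minus untreated) of the 50 genes was -0.43, which is 74.4% of the untreated level, against 0.02 over all tested entries and -0.13 over the entries of like abundance. The middle of the list, from the lower to the upper quartile, ran from -0.68 to -0.34. A fall of more than 0.25 on the log2 scale was seen in 43 genes, of more than 0.5 in 21, of more than 0.75 in 9 and of more than 1 in 3. Those 3, Ung, Pold2 and Orc2, were past the thresholds of the study (adjusted p under 0.05, log2 fold change beyond 1 and mean normalised count over 100), which 3.92% of all tested entries and 5.4% of the entries of like abundance passed in the lower direction. Together the 50 genes took 0.555% and 0.544% of the counts of the untreated libraries and 0.409% and 0.419% of those of the genistein libraries. Bulk RNA cannot tell fewer replicating cells from less RNA per cell.

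**Figure D1:**
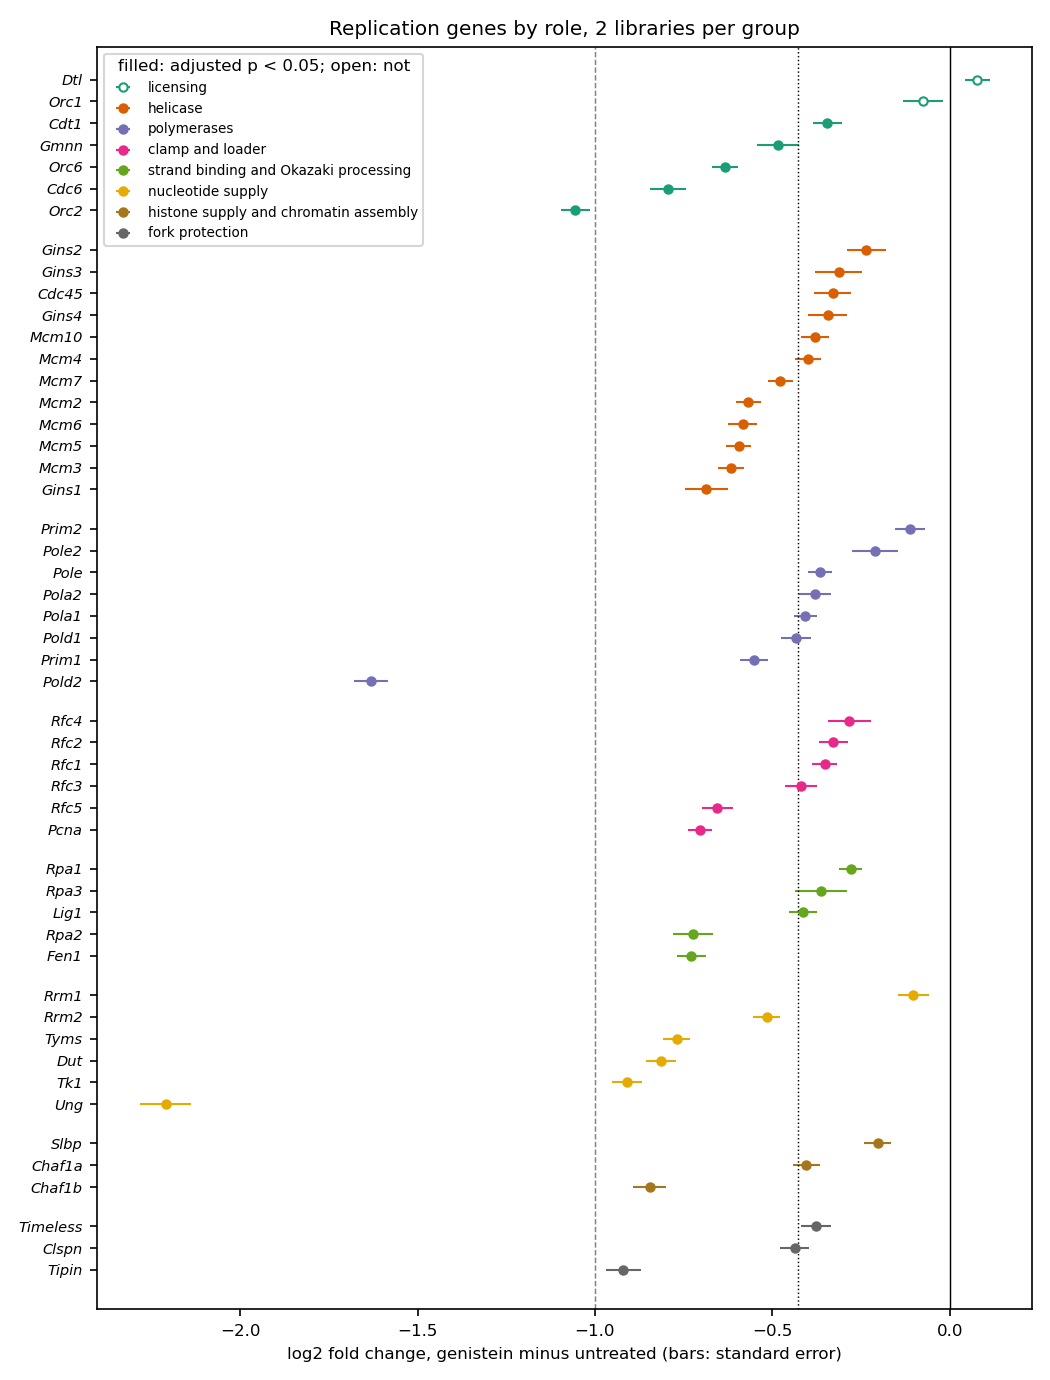
The log2 fold change of each of the 50 genes (x axis, genistein minus untreated, points with standard error bars, 2 libraries per group) is plotted by role, with filled points for an adjusted p under 0.05, a dotted line at the median of -0.43 and a dashed line at -1. All but Dtl lie below 0, and Ung, Pold2 and Orc2 lie left of the dashed line.

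Origin licensing held both genes that were not called, with 5 of its 7 genes lower and a median log2 fold change of -0.48. Among entries of like abundance 50.7% were called lower, which bears on each count by role here and below. A count of 3 of 3 genes says little against that share. Orc2, a subunit of the origin recognition complex (chr1:58462771-58505109 on GRCm38, as for all gene positions, minus strand), had normalised read counts of 2834 and 2894 in the untreated and of 1345 and 1412 in the genistein libraries. The genistein libraries stood at 48.1% of the untreated level, far outside the spread of either pair (log2 fold change -1.06, SE 0.041, adjusted p = 1.4e-12, edgeR). Only 5.44% of all tested entries had a lower log2 fold change. An exon stretch equal to 29.8% of Orc2 is shared with Nif3l1 on the opposite strand, which had a log2 fold change of -0.56, and the strand setting of the counting is not given in the sources used here, so the Orc2 value is uncertain to that extent. In all 17 of the 50 genes share exon bases with another counted gene, and the same uncertainty holds for each.

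Orc1, the largest subunit of the same complex (chr4:108579423-108614833, plus strand), differed little between the groups. Its counts were 789 and 789 in untreated and 741 and 758 in genistein-exposed cells, with both genistein values below but close to the untreated pair. The log2 fold change was -0.07 with a 95% interval from -0.20 to 0.05 (adjusted p = 0.25, edgeR), an interval that includes 0. Orc6, the smallest subunit, fell from 4254 and 4089 to 2653 and 2724. The ratio of Orc1 to Orc2 counts within a library, which no scaling of the libraries can alter, was 0.278 and 0.272 in the untreated and 0.551 and 0.537 in the genistein libraries.

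Both loading factors and the inhibitor of one of them fell. Cdc6, the ATPase that loads the helicase, had counts of 1913 and 1796 in untreated cells and 1039 and 1101 in genistein-exposed cells, a fall to 57.7% (log2 fold change -0.79, SE 0.050, adjusted p = 5.6e-10, edgeR). Cdt1, its partner in loading, was at 2254 and 2148 without and 1756 and 1709.6 with genistein, a smaller fall to 78.7%. Gmnn, which encodes geminin, the inhibitor that binds Cdt1, was at 1143 and 1087 without and 764 and 833 with genistein. For these 3 genes the genistein values lay below the untreated values without overlap, as in 42% of all tested entries.

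Dtl (chr1:191537356-191575544, minus strand) encodes the receptor through which a cullin ubiquitin ligase marks Cdt1 for degradation. It was the only one of the 50 genes with higher values after genistein, with 3376 and 3343 in the untreated and 3597 and 3494 in the genistein libraries. The log2 fold change of 0.08 (95% interval 0.0046 to 0.15) had an adjusted p of 0.053 in edgeR, just over the threshold, and passed it at 0.15 (adjusted p = 0.0021) with library totals as the scale and at 0.12 (adjusted p = 0.0034) when repeats were left out. Counts of Dtl relative to Cdt1 in the same library were 1.498 and 1.56 in untreated and 2.05 and 2.04 in genistein-exposed cells, a pair picked after the values were seen. The ratio of Gmnn to Cdt1 moved little, from 0.507 and 0.506 to 0.435 and 0.487. On the log2 scale the gap of 0.05 between its groups was smaller than the gap of 0.16 between the genistein libraries.

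All 12 helicase genes fell, with a median log2 fold change of -0.44. The 6 subunits of the MCM ring, Mcm2 to Mcm7, form the motor of the helicase, and they moved within a narrow band from -0.62 (Mcm3) to -0.40 (Mcm4) with a median of -0.58. Mcm3 had counts of 8139 and 7713 in untreated and 5208 and 5136 in genistein-exposed cells (SE of the log2 fold change 0.036, adjusted p = 2.3e-10, edgeR). Mcm4 had 7581 and 7371 without and 5513 and 5822 with genistein, and its 2 genistein libraries were the furthest apart of the ring. For each of the 6 genes the lowest untreated value exceeded the highest genistein value, as in 42% of all tested entries.

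Mcm2 went from 8147 and 8015 to 5465 and 5442 and Mcm7 from 7854 and 7861 to 5716 and 5567. The count ratio of Mcm2 to Mcm7 within a library was 1.04 and 1.02 in the untreated and 0.956 and 0.977 in the genistein libraries. This was a small shift without overlap. On the log2 scale the gap of 0.06 between the groups was larger than the largest gap of 0.03 within a group. Summed over the ring, the normalised counts were 50518 and 49388 in untreated and 34372 and 34253 in genistein-exposed cells. The microRNA genes Mir25 and Mir93 share 1.90% and 1.99% of the Mcm7 exon bases on the same strand and held 67 and 41 raw counts over the 4 libraries together.

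The 4 GINS genes, whose products join Cdc45 and MCM in the active helicase, had a smaller median fall of -0.33 but a wider range. Gins1 was the lowest of the 12 helicase genes, with 827 and 834 in untreated and 499 and 534 in genistein-exposed cells (log2 fold change -0.69, SE 0.061, adjusted p = 3.9e-08, edgeR). Gins2 was the highest, with 1144 and 1078 without and 926 and 963 with genistein (log2 fold change -0.24, SE 0.055, adjusted p = 0.0011, edgeR). The value of Gins2 is uncertain, because 67.3% of its exon bases lie opposite exons of Gse1, which had a log2 fold change of 0.68. Gins3 and Gins4 lay between them at -0.31 and -0.34. Cdc45 itself had a log2 fold change of -0.33 and Mcm10, a factor of helicase activation, one of -0.38.

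The DNA polymerase genes fell in 8 of 8 cases with a median of -0.39, and 1 of them stood far from the others. The count of lower polymerase genes was 6 with library totals and with DESeq2, and 7 with repeats left out. Pold2 (chr11:5872180-5878292, minus strand), the accessory subunit that links polymerase delta to its partners, had counts of 2909 and 2701 in the untreated and 915 and 897 in the genistein libraries. It was 3.10-fold lower after genistein (log2 fold change -1.63, SE 0.047, adjusted p = 4.5e-14, edgeR), and 1.32% of all tested entries had a lower log2 fold change. Pold1, the catalytic subunit of the same enzyme, went from 2204 and 2086 to 1603 and 1572, a fall to 74.0%. The count ratio of Pold2 to Pold1, chosen after the values were seen, was 1.32 and 1.29 in the untreated and 0.571 and 0.571 in the genistein libraries. In the annotation used here, no other counted gene shares exon bases with Pold2.

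Polymerase epsilon copies the leading strand. Its catalytic subunit gene Pole had counts of 3893 and 3912 in untreated and 2999 and 3055 in genistein-exposed cells. The ratio of Pold1 to Pole overlapped between the groups, at 0.566 and 0.533 without and 0.535 and 0.515 with genistein, so the catalytic subunits of the leading and lagging strand enzymes kept a ratio that did not separate the groups. Pole2, the accessory subunit of polymerase epsilon, fell by a small amount (log2 fold change -0.21, adjusted p = 0.0081, edgeR), a call lost with library totals, with DESeq2 and without the second untreated library (adjusted p of 0.059, 0.060 and 0.087).

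Polymerase alpha with its primase lays the RNA and DNA primers. Prim1, the catalytic primase subunit, fell from 2441 and 2437 to 1645 and 1684 (log2 fold change -0.55, SE 0.039, adjusted p = 2.2e-09, edgeR). Prim2, the large primase subunit, moved little, with 1815 and 1859 in untreated and 1663 and 1736 in genistein-exposed cells. Its log2 fold change of -0.11 (adjusted p = 0.026, edgeR) was among the smallest called of the 50 genes and was lost under 5 of 10 alternative settings. Its adjusted p was 0.43 with library totals, 0.15 with repeats left out, 0.096 with DESeq2, 0.10 without the second untreated library and 0.23 without the first genistein library. Pola1 and Pola2, the polymerase subunits, lay between at -0.41 and -0.38.

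**Figure D2:**
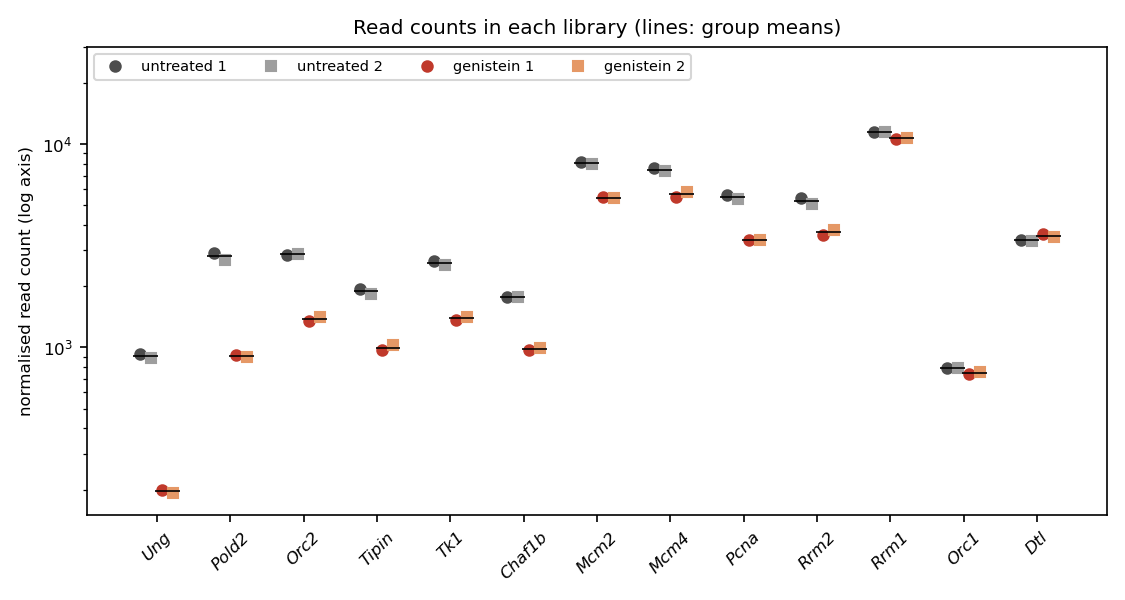
Normalised read counts (log axis) of 13 genes are shown in each of the 4 libraries, with a line at each group mean. The genistein points of Ung, Pold2 and Orc2 lie well below the untreated points, while those of Rrm1, Orc1 and Dtl lie close to them.

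Both the sliding clamp and its loader fell, 6 genes of 6, with a median of -0.39. Pcna, the clamp that holds polymerases on DNA, had counts of 5631 and 5353 in untreated and 3385 and 3358 in genistein-exposed cells (log2 fold change -0.70, SE 0.035, adjusted p = 2.5e-11, edgeR). Reads of Pcna may be shared with the near-identical copy Pcna-ps2, which held 2971 and 2748 raw counts in the untreated and 1860 and 1850 in the genistein libraries, so the split of reads between both loci is uncertain. Of the loader subunits Rfc5 fell furthest, from 2617 and 2489 to 1566 and 1680.2 (log2 fold change -0.65). Rfc4 fell least, with 999.95 and 909 without and 779 and 791 with genistein (log2 fold change -0.28, adjusted p = 5.3e-04, edgeR). Its value is uncertain, because 12.7% of its exon bases lie opposite Eif4a2, which had a mean normalised count of 7735 and a log2 fold change of -0.52. Rfc1, the large subunit, went from 4630.2 and 4493 to 3495 and 3655, and the ratio of Pcna to Rfc1 counts was 1.22 and 1.19 in untreated and 0.969 and 0.919 in genistein-exposed cells.

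The 5 genes of strand binding and Okazaki fragment processing all fell, with a median of -0.41. Fen1, the nuclease that trims the flaps between Okazaki fragments, was at 2577 and 2636 in untreated and 1539.7 and 1608 in genistein-exposed cells (log2 fold change -0.73, SE 0.041, adjusted p = 1.1e-10, edgeR). The predicted gene Gm10143 lies opposite 78.8% of its exon bases but held 35 raw counts over all 4 libraries. Lig1, the ligase that seals the fragments, had a log2 fold change of -0.41. The 3 subunits of replication protein A, which coats single-stranded DNA, had log2 fold changes from -0.72 to -0.28. Rpa2, the middle subunit, went from 1636 and 1559 to 916 and 1022 (log2 fold change -0.72), and Rpa1, the large subunit, from 7047 and 7039 to 5856 and 5751 (log2 fold change -0.28). The ratio of Rpa2 to Rpa1 counts, a pair chosen after the values were seen, was 0.232 and 0.222 in untreated and 0.156 and 0.178 in genistein-exposed cells. Rpa3, the small subunit, lay at -0.36.

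Nucleotide supply had the lowest median of the 8 roles, -0.79, and held both the lowest member and one of the least changed. Ung (chr5:114130386-114139323, plus strand) was listed under this role. It encodes the glycosylase that removes uracil from DNA, and not an enzyme that makes nucleotides. Its counts were 928 and 883 in the untreated and 198 and 193 in the genistein libraries, a 4.63-fold lower level (log2 fold change -2.21, SE 0.072, adjusted p = 1.8e-13, edgeR). The pair of genistein values lay within 5 counts of each other, and only 0.599% of all tested entries had a lower log2 fold change. No other counted gene shares exon bases with Ung.

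Tk1, Tyms and Dut, which serve thymidine nucleotide synthesis, fell. Tk1, the thymidine kinase of the salvage route, was at 2665 and 2549 in untreated and 1365 and 1411 in genistein-exposed cells (log2 fold change -0.91, SE 0.042, adjusted p = 1.1e-11, edgeR). Tyms, thymidylate synthase, fell from 3366 and 3249 to 1962 and 1919 and reached 58.7% of the untreated level. Dut, the enzyme that destroys dUTP and so keeps uracil out of DNA, fell from 2949.9 and 2909 to 1603 and 1731. The ratio of Ung to Dut counts, a pair chosen after the values were seen, was 0.315 and 0.303 in untreated and 0.123 and 0.112 in genistein-exposed cells.

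Ribonucleotide reductase makes deoxyribonucleotides from a large subunit, Rrm1, and a small subunit, Rrm2, with Rrm2b as an alternative small subunit known as a p53 target. Rrm1 (chr7:102441695-102469771, plus strand) was at 11476 and 11449.8 in the untreated and 10610.1 and 10742 in the genistein libraries. The small log2 fold change of -0.10 (adjusted p = 0.045, edgeR) lay close to the threshold and lost its call under 6 of 10 alternative settings, with an adjusted p of 0.58 with library totals, 0.20 with repeats left out and 0.13 with the replicate number as a block. Without untreated 1, untreated 2 or genistein 1 the adjusted p was 0.15, 0.13 and 0.092. Rrm2 fell from 5419 and 5089 to 3579 and 3771 (log2 fold change -0.52, SE 0.038, adjusted p = 3.9e-09, edgeR). Rrm2b rose, from 497 and 487 to 717 and 735 (log2 fold change 0.56, SE 0.061, adjusted p = 4.5e-07, edgeR). The count ratio of Rrm2 to Rrm2b was 10.9 and 10.4 in untreated and 4.99 and 5.13 in genistein-exposed cells, and that of Rrm2 to Rrm1 was 0.472 and 0.444 without and 0.337 and 0.351 with genistein.

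**Figure D3:**
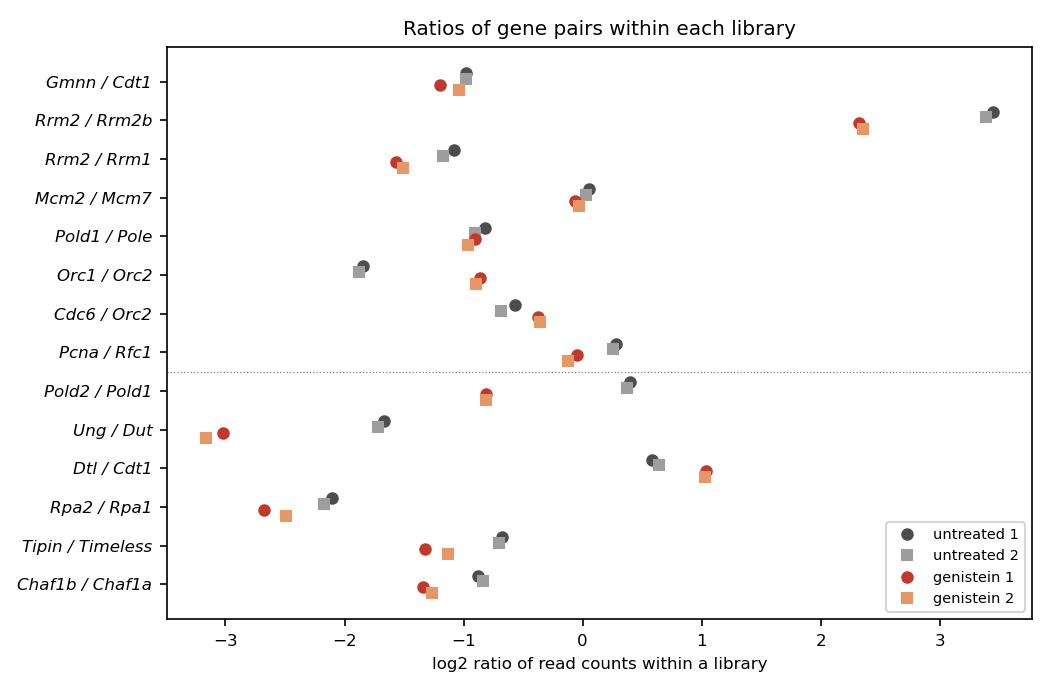
The log2 ratio of the read counts of 14 gene pairs (x axis) is shown in each of the 4 libraries. The pairs under the dotted line were chosen after the values were seen. Pold1 to Pole overlaps between the groups, and Rrm2 to Rrm2b, Orc1 to Orc2, Pold2 to Pold1 and Ung to Dut are the furthest apart.

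Genes that supply histones and assemble chromatin behind the fork fell in 3 of 3 cases. Chaf1b, the middle subunit of chromatin assembly factor CAF-1, was at 1773 and 1763 in untreated and 972 and 996 in genistein-exposed cells (log2 fold change -0.85, SE 0.047, adjusted p = 1.1e-10, edgeR). Its partner Chaf1a, the large subunit, was at 3265 and 3149.6 without and 2459 and 2389 with genistein (log2 fold change -0.40). Of the Chaf1a exon bases 52.5% lie opposite Ubxn6, which had a log2 fold change of -0.02. Slbp, which binds the stem-loop of histone mRNA, fell the least, from 3371 and 3362 to 2821 and 3029 (log2 fold change -0.20, adjusted p = 2.0e-04, edgeR).

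The fork protection genes also fell in 3 of 3 cases. Tipin and Timeless form a pair that travels with the fork, and Clspn encodes claspin, which relays the replication checkpoint. Tipin was at 1928 and 1839 in untreated and 969 and 1024 in genistein-exposed cells (log2 fold change -0.92, SE 0.049, adjusted p = 7.0e-11, edgeR). Timeless was at 3078 and 2991 without and 2424 and 2248 with genistein (log2 fold change -0.38), and Clspn at 1996 and 1988 without and 1478 and 1466 with genistein (log2 fold change -0.44). The ratio of Tipin to Timeless counts, chosen after the values were seen, was 0.626 and 0.615 in the untreated and 0.3996 and 0.456 in the genistein libraries, with no overlap.

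Levels of different genes were compared per length, as CPM per kilobase of annotated exon. The length joins the exons of all annotated transcripts of a gene and can exceed that of the transcript made. An order of levels between genes depends on that length, while the change of a gene between groups does not. In the MCM ring the level of the highest subunit was 1.92 and 1.90 times that of the lowest in the untreated libraries and 1.96 and 2.07 times in the genistein libraries. Mcm2 was the lowest throughout (mean 38.8 in untreated and 26.2 in genistein-exposed cells). The highest was Mcm6 in the untreated (74.2) and Mcm4 in the genistein libraries (52.8). The joined exon length of Mcm2 was 6956 bases, against 3589 (Mcm4) to 4666 (Mcm6) for the others, so its place depends on that length. The GINS subunits spanned a 3.67 to 3.81-fold range in all 4 libraries, from Gins3 to Gins4. In polymerase delta Pold2 was at 3.38 and 3.32 times the level of Pold1 in the untreated and at 1.46 times in both genistein libraries. Of the origin recognition subunits among the 50 genes, Orc6 was 7.59 and 7.30 times as abundant per length as Orc1 in the untreated and 5.05 and 5.06 times in the genistein libraries.

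These lengths also come from a later GENCODE release than the one the reads were counted on, which adds to the uncertainty of an order of levels. In CAF-1 Chaf1b was 1.03 and 1.06 times Chaf1a in the untreated libraries, and Chaf1a was 1.34 and 1.27 times Chaf1b in the genistein libraries. The order of Chaf1a and Chaf1b is uncertain. The joined exon length was 4681 bases for Chaf1b and 8854 for Chaf1a, of which 52.5% lie opposite Ubxn6. In ribonucleotide reductase Rrm2 stood above Rrm1 per length in every library. The means were 63.4 against 34.8 in untreated and 44.3 against 32.4 in genistein-exposed cells. The joined exon length was 2771 bases for Rrm2 and 11012 for Rrm1, so this order depends on those lengths. By read counts Rrm1 stood above Rrm2 in every library. Across the 50 genes the mean level per length was highest for Pcna in untreated (76.5) and for Mcm4 in genistein-exposed cells (52.8), and lowest for Ung in both (5.54 and 1.20).

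**Figure D4:**
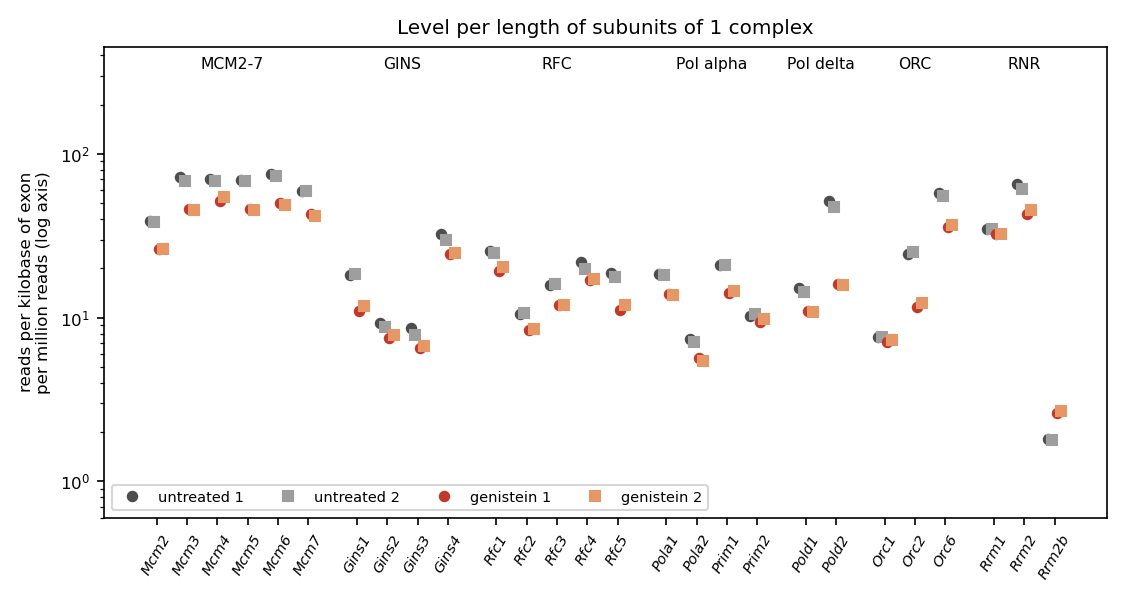
CPM per kilobase of exon (log axis) is shown in each library for the subunits of 7 complexes, with Rrm2b beside the 50 genes. In the MCM ring all 6 subunits are lower in the genistein libraries, and the level of Pold2 comes close to that of Pold1 in the genistein libraries.

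Promoter letters were searched in the RefSeq windows of 300 bases, which run from 250 bases before to 50 bases after the annotated start. Of the 50 genes 41 had a window (47 windows in all), and Gmnn, Mcm4, Gins1, Gins2, Gins4, Prim2, Pole, Rfc2 and Tipin had none. E2F-type letters (TTTCCCGC, TTTCGCGC, TTTGCCGC or TTTGGCGC, either strand) were present in 15 of 41 genes (36.6%), against 2.60% of the 27025 genes with a window. By window the shares were 31.9% and 2.26%. The CCAAT box (CCAAT, either strand) was present in 26 of 41 genes (63.4%), against 41.1% of all genes, or 59.6% against 37.4% by window. The CHR-type letters TTTGAA, again on either strand, were found in 5 of 41 genes (12.2%), against 20.2% of all genes, or 10.6% against 17.9% by window. E2F-type letters overlap each other in Mcm5 and Mcm6, and share 1 base with a CCAAT box in Mcm7.

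Genes with and without these letters overlapped in how far they fell. The 15 genes with E2F-type letters had a median log2 fold change of -0.42 and ran from -0.79 to 0.08, and the 26 without had a median of -0.56 and ran from -2.21 to -0.10. Both genes that were not called lower, Orc1 and Dtl, held E2F-type letters. The medians with and without a CCAAT box were -0.43 and -0.65, and those with and without the CHR-type letters -0.57 and -0.44. Genes with a CCAAT box ran from -1.63 to 0.08, and those without from -2.21 to -0.21. In nucleotide supply Ung, Tk1, Dut and Tyms had no CCAAT box, while Rrm2 and Rrm1 had 1 or more. In other roles Pold2 and Orc2, at -1.63 and -1.06, had a CCAAT box. These medians are descriptions of 41 genes, and a match of letters is not a bound site.

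**Figure D5:**
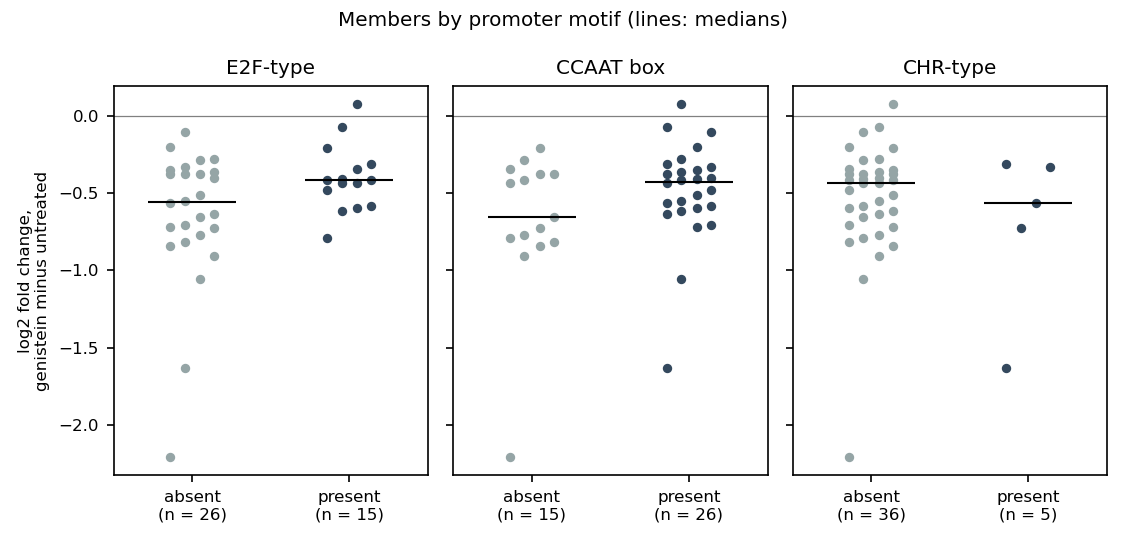
The log2 fold change (y axis, genistein minus untreated) of the 41 genes with a promoter window is shown by absence or presence of E2F-type letters, the CCAAT box and the CHR-type letters, with a line at each median. The ranges with and without each motif overlap widely.

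A further 54 genes of the same pathway gave the wider setting. Of these 40 fell, 6 rose and 8 were not called, with a median log2 fold change of -0.42, where 36% of all tested entries were lower and 36.2% higher. Past the thresholds of the study were 6, all lower, where 3.92% of all tested entries passed them in the lower direction. Dna2, the nuclease and helicase that trims long flaps, was the lowest, from 1228 and 1114 to 326 and 277 (log2 fold change -1.95, adjusted p = 1.7e-12, edgeR). Dctd, Dctpp1 and Ctps, enzymes of pyrimidine nucleotide metabolism, had log2 fold changes of -1.46, -1.21 and -1.01. Ssrp1, a subunit of the histone chaperone FACT, was at -1.11, and Fbxo5, an inhibitor of the anaphase-promoting complex, at -1.04. In the kinase that fires licensed origins, the catalytic subunit Cdc7 fell from 1453 and 1389 to 915 and 979 (log2 fold change -0.59) while the activator Dbf4 had 4459 and 4264 without and 4112 and 4250.2 with genistein (log2 fold change -0.06, adjusted p = 0.13, edgeR).

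In 20 genes of the G2 and M phases 10 fell, 5 rose and 5 were not called, with a median log2 fold change of -0.10. The share called lower was 50%, beside 36% of all tested entries and 50.7% of the entries in the range of counts of the 50 replication genes. Ccna2, cyclin A2, was the lowest of them, from 7603 and 7412 to 4243 and 4423 (log2 fold change -0.79, adjusted p = 2.7e-12, edgeR). Nusap1, a spindle protein, was the highest, from 2435 and 2399 to 3475 and 3502 (log2 fold change 0.53, adjusted p = 1.0e-09, edgeR). The difference between this list and the replication genes was not tested.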

How the data were processed

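Total RNA of MEF cells, untreated or exposed to genistein (2 libraries each), was analysed. The authors depleted ribosomal RNA, trimmed paired-end reads with Trim Galore, aligned them to mm10 with STAR and counted them with TEtranscripts on GENCODE gene and repeat annotations, and the deposited values are raw counts per gene and repeat subfamily. Reads in near-identical copies may be split, and the strand setting of the counter is not given in the sources used here.

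Counts were fitted with edgeR 4.0.16 (R 4.3.3, filterByExpr by group, TMM, quasi-likelihood test, two-sided, Benjamini-Hochberg over 16240 genes and 1118 repeats). A further entry that names no gene held 0.00208% to 0.00314% of the counts and was left out. Normalised counts were scaled from the effective size of a library to the mean of all 4. An SE is the log2 fold change divided by the square root of F, and intervals are at 95%. Exons and coordinates are from a later GENCODE release on GRCm38, the assembly of mm10, counted from 1. With 2 libraries against 2 an exact permutation test cannot go below p = 0.333, so p-values come from the model.

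Counts of replicates were unequal beyond sampling noise (chi-square over degrees of freedom 5.76 and 13.2), so no library was a duplicate. The members and lists were chosen with earlier results of these data known. Values in every library are given for the 2 lowest and the highest log2 fold change in each role and for the ratio pairs. Rrm2b, Cdc7, Dbf4, the other pathway genes past the study thresholds and the extremes of the G2 and M list are named beside them. Orc6, Mcm4 and Tyms were added after their values were seen. The alternatives changed the scaling, the filter, the tool (DESeq2 1.42.0) and the thresholds, added a replicate block, or left out 1 library at a time.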

Additional observations from a re-analysis of the deposited data

How the results depend on the processing

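The count of lower genes was 48 and lay between 45 and 48 under every alternative run. No gene of the 50 was called higher except with library totals and with repeats left out (1 each, Dtl). The median log2 fold change was -0.43, and -0.36 with library totals as the scale. Leaving out each library in turn gave 45 to 48 lower and 0 higher genes, and a median of -0.45 to -0.42. The lone library of a group was then assumed to vary like the other group. The 3 genes past the study thresholds became 2 with library totals, without Orc2 at -0.99, 2 by a test against the fold threshold (glmTreat) and 2 with a mean normalised count over 1000. For single genes 484 values kept their direction and call, 14 lost the call (Prim2, Pole2 and Rrm1), 2 gained it (Dtl) and 0 reversed.

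The replicate number did not pair the libraries (correlation of deviations -0.03), and the fit with it as a replicate block called 47 of the 50 genes lower. It changed the call of 1 gene, Rrm1. With 2 libraries per group, the small log2 differences of Dtl, Rrm1, Prim2 and Pole2 passed or missed the threshold depending on the setting.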

Other observations

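The 6 higher genes among the 54 other pathway genes were looked at after their values were seen, except Rrm2b. Primpol, a primase that restarts stalled forks, had normalised read counts of 223 and 203 in untreated and 386 and 437 in genistein-exposed cells (log2 fold change 0.95, adjusted p = 1.7e-07, edgeR). Zranb3, a fork remodelling translocase, had 490.5 and 545 without and 1026 and 933 with genistein (log2 fold change 0.92, adjusted p = 4.2e-09, edgeR). Hltf, another translocase of this kind, had 1435 and 1418 without and 1534 and 1592 with genistein (log2 fold change 0.13). The rest of the fork protection genes among the other pathway genes did not rise. Rif1 and Rad18 were called lower (log2 fold change -0.95 and -0.11), and Smarcal1 was not called (-0.15). In polymerase delta the small subunit Pold4 was at 315 and 303 without and 486 and 474 with genistein (log2 fold change 0.64), opposite in direction to Pold2. Pold3, another subunit of this enzyme, also looked at afterwards, fell (log2 fold change -0.86, adjusted p = 1.5e-09, edgeR). Tk2, the mitochondrial thymidine kinase, was at 588 and 565 without and 722 and 690.3 with genistein (log2 fold change 0.29), opposite to the cytosolic Tk1. For Primpol, Zranb3, Hltf, Pold4 and Tk2 both genistein libraries lay above both untreated libraries. These 5 genes were picked from those called higher, so their separation adds nothing to the calls. The share of all tested entries that lay above in this way is not given here.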
